A study of Bos taurus with 2 samples.

Results

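The RNF and TRIM genes, which code mostly for RING-finger proteins, were compared between the testes of crossbred and Zebu bulls. The genes were taken by name, as every non-control probe of the arrays whose gene name is RNF or TRIM followed by a digit. This gave 127 of 32428 gene names, 73 RNF and 54 TRIM, read by 258 probes in 271 spots. The crossbred group was Holstein Friesian crossbred bulls with 50 to 75% exotic inheritance and the Zebu group was Tharparkar bulls. All were adult males aged 24 months, and 1 testis of each was removed by castration. RNA of 3 bulls per group was pooled in equal amounts and each pool was hybridized to 1 array, so the spread between bulls was not measured, no test between the groups can be made and no p-value is given. The arrays shared a slide and a scan.

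A RING finger is a small domain in which cysteine and histidine residues hold zinc ions. Most RING proteins are E3 ubiquitin ligases: they bring an E2 enzyme charged with ubiquitin to a target protein, which is then degraded or changed in its function. TRIM proteins carry the RING domain in front of B-box and coiled-coil domains, whereas RNF is a naming group that holds several unrelated subfamilies. In the testis, ubiquitin ligases are known for the removal of histones in spermatids, for the repair of meiotic DNA breaks and for the building of the acrosome.

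Some of the probes hold codons for short patterns of cysteine and histidine, of the kind that can hold zinc. Each probe is a 60-base oligonucleotide of the sense strand. In 14 of the 258 probes (5.43%), against 0.870% of all 51279 probes on the array, a forward reading frame without a stop held codons for either of a pair of zinc-binding patterns. The first was cysteine, proline, any residue and cysteine (TGNCCNNNNTGN, with T or C as the last base of each cysteine codon). The second was cysteine, 1 to 3 residues, histidine, 2 residues and cysteine or histidine. Only the printed strand was searched, and a match is a description of these letters. Whether a match lies in the RING finger of its protein or in another part was not checked. The probes of RNF44, RNF138, RNF148 and RNF145 are shown because the differences described below were read from them, with the matched codons in capitals.

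RNF44: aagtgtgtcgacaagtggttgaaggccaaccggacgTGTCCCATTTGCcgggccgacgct
RNF138: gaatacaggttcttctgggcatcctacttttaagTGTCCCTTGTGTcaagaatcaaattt
RNF148: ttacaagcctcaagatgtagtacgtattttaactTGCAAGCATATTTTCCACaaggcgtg
RNF145: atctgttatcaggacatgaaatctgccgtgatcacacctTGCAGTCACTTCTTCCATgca

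By the array's annotation, on the HGSC Btau_3.1 build and all on the minus strand, the RNF44 probe lies at chr7:37301378-37301628, the RNF138 probe at chr24:26163492-26166221, the RNF148 probe at chr4:90182832-90182891 and the RNF145 probe at chr7:70550480-70552979. The probes of RNF44, RNF138 and RNF145 span more than 60 bases of the genome and so cross an intron.

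Values below are log2 signals relative to the 75th percentile of each array, differences are crossbred minus Zebu, and levels of different probes were not compared. A probe is called detected on an array where the scanner software marked all its spots there as well above background. A gene was read from its brightest probe, and it was counted as higher or lower where the difference reached 1.5 (a linear fold of 2.83) in either direction and the probe was detected on the brighter array. The SD between spots of 1 probe corresponded to 0.34 for a difference, which covers spotting and scanning only. The crossbred array had a dark patch, and genes with a spot in it are given with and without that spot. Of the RNF genes, 69 were detected on both arrays, 2 on the Zebu array only, 1 on the crossbred array only and 1, RNF175, on neither. Of the TRIM genes, 43 were detected on both arrays, 4 on the Zebu array only, 3 on the crossbred array only and 4 (TRIM43B, TRIM49, TRIM63 and TRIM72) on neither.

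As families, the RNF and TRIM genes were centred near the array as a whole. The median difference was -0.04 over the 69 RNF genes and 0.22 over the 43 TRIM genes, beside -0.04 over the 22842 gene names detected on both arrays. Of the latter, 47.7% were above 0, and the counts of signs in the lists below are to be set beside this share. Of the 72 RNF genes detected on at least 1 array, 9 were higher in the crossbred pool and 1 was lower. Of the 50 detected TRIM genes, 4 were higher and 1 was lower. Over the 24751 detected gene names of the array, 7.12% were higher and 2.92% were lower. At a difference of 1, 11 RNF and 11 TRIM genes were higher and 2 RNF and 4 TRIM genes were lower, beside 12.8% and 8.87% of the array. With every probe counted, 16 of 239 detected RNF and TRIM probes were higher and 5 were lower, beside 6.14% and 2.99% of all detected probes. The lower probes include that of RNF128 in the dark patch, at -7.86, and an RNF125 probe detected on the Zebu array only, at -1.61. With normexp, another background correction, RNF141, RNF144A, RNF150, RNF207, TRIM34 and TRIM77P no longer reached 1.5 in size, and when a gene's probes were averaged RNF44, RNF125 and TRIM34, among others, did not.

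**Figure D1:**
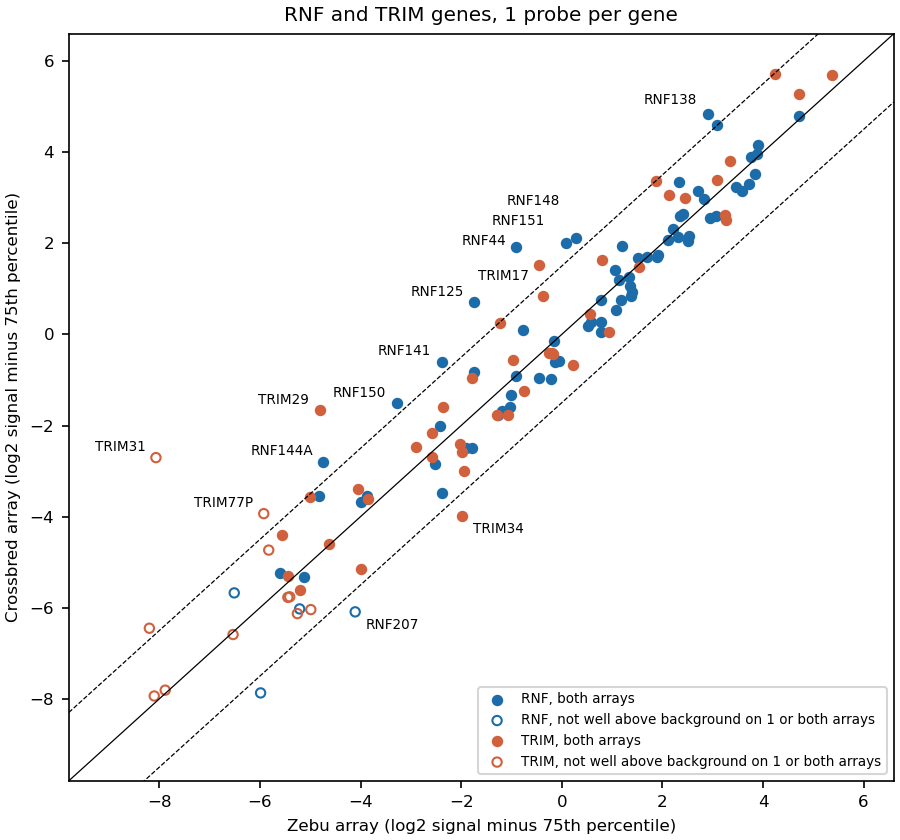
Signal of each RNF (blue) and TRIM (red) gene on the Zebu array (x axis) and on the crossbred array (y axis), as log2 signal minus the array's 75th percentile, 1 point per gene from its brightest probe. Open points were not well above background on 1 or both arrays, dashed lines mark a log2 difference of 1.5, and most of the detected genes beyond these lines are named.

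The members with known roles in germ cells were mostly brighter in the crossbred pool. Of 15 listed germ cell genes, 11 matched a gene name of the array and all 11 were detected on both arrays. Their median difference was 1.47 and 10 of the 11 were above 0. Past the threshold were 4 (36.4%), all higher, beside 7.12% of the array. The list was chosen with earlier results of these data known, so these counts are a description only. RNF138, a ligase of DNA end resection, read 4.83 in the crossbred pool and 2.90 in the Zebu pool with its brightest probe, a difference of 1.93. A second RNF138 probe, the one printed above, read 3.96 and 2.003, a difference of 1.96. Both probes, 3426 bases apart in the genome, were thus brighter in the crossbred pool by nearly the same amount.

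RNF151, a testis RING protein linked to acrosome formation, read 1.998 in the crossbred pool and 0.09 in the Zebu pool, a difference of 1.91. For RNF148, a testis member of the membrane-bound PA-TM-RING ligases, the values were 2.11 and 0.29, a difference of 1.82. RNF141, also known as ZNF230 and expressed in testis, read -0.60 and -2.39, a difference of 1.79. Each of the 3 was read by a single probe, and in linear terms they were 3.46 to 3.76 times brighter in the crossbred pool.

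TRIM36, or haprin, a sperm protein of the acrosome reaction, fell just short of the threshold with 5.73 in the crossbred pool, 4.23 in the Zebu pool and a difference of 1.49. TRIM42 read 0.25 and -1.22, a difference of 1.47. Differences were smaller for RNF32, a testis-expressed RING protein (0.75), TRIM69 (0.47), RNF8, which ubiquitylates histones at DNA breaks (0.16), and RNF19A, or dorfin (0.09). RNF4, a ligase for SUMO-modified proteins, was the 1 member below 0, at -0.46.

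Markers of spermatids were also brighter in the crossbred pool. All 14 were detected on both arrays and were above 0, with a median difference of 1.80. Of them, 12 (85.7%) were higher past the threshold, beside 7.12% of the array. Most of the 14 are also in the paper's lists of genes upregulated in crossbred testis, which came from these same arrays. The direction of those markers was thus known beforehand and is no separate support for the germ cell list. The summed linear level of all 14, in units of the 75th percentile, was 786 in the crossbred pool and 337 in the Zebu pool. The 7 detected spermatocyte markers had a median difference of 0.41 and a summed level of 13.8 and 11.47. The 9 spermatogonial markers had a median of -0.71 (33.9 and 47.9), the 7 Sertoli cell markers -0.90 (154 and 241) and the 7 Leydig cell markers -0.57 (89.6 and 133). SYCP1, SYCP2, MLH3, ID4 and SOX9 of these lists matched no gene name. In whole testis, fewer cells of a type and less RNA per cell cannot be told apart, and the part of cell composition in the values of the RNF and TRIM genes was not tested.

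**Figure D2:**
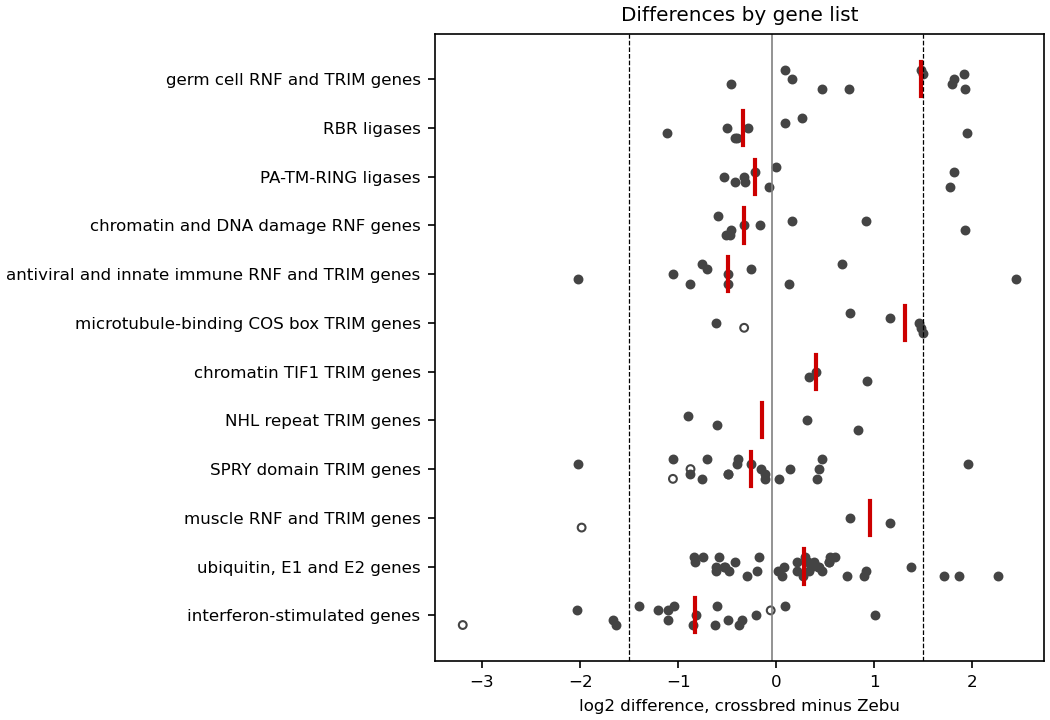
Log2 difference (crossbred minus Zebu, x axis) of each gene of 12 lists (rows), 1 point per gene, open where 1 array was not well above background. Red bars are the median over genes well above background on both arrays, the grey line is the median of all gene names (-0.04) and dashed lines mark 1.5 in each direction. The germ cell list has the highest median, 1.47, and the interferon-stimulated genes the lowest, -0.83.

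Among the RBR ligases, which carry ubiquitin on a cysteine of their own before passing it on, only RNF144A passed the threshold. RNF144A, a ligase for the DNA repair kinase DNA-PKcs, read -2.79 in the crossbred pool and -4.74 in the Zebu pool, a difference of 1.94. The 8 RBR genes had a median of -0.34, and 5 of 8 were below 0. RNF217, a ligase for the iron exporter ferroportin, read -3.49 and -2.38, a difference of -1.11, the lowest of the list. Differences were -0.51 for RNF144B, -0.42 for RNF216, -0.40 for the androgen receptor coactivator RNF14, -0.28 for RNF31, the catalytic subunit of the linear ubiquitin chain complex, and 0.27 for RNF19B.

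The PA-TM-RING ligases sit in membranes of the secretory and endosomal system. Of the 9 measured, 7 were below 0 and the median was -0.22, yet RNF148 (described above) and RNF150 were past the threshold. RNF150 read -1.501 in the crossbred pool and -3.28 in the Zebu pool, a difference of 1.78. The others lay between -0.53 and 0.00: RNF130 at -0.53, RNF167 at -0.42, RNF215 at -0.33, RNF13 at -0.32, RNF43, which removes Wnt receptors, at -0.22, RNF128 at -0.08 and RNF149 at 0.00. Without the dark patch, RNF215 stood at 0.04 and the median of the list at -0.08.

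The ligases of chromatin and DNA damage had a median of -0.32 over 9 genes, of which 6 were below 0. RNF2, a catalytic subunit of Polycomb repressive complex 1, stood at -0.59, RNF20 and RNF40, which together ubiquitylate histone H2B, at -0.51 and -0.16, and RNF168, which acts after RNF8 at DNA breaks, at -0.32. RNF138 was the 1 member past the threshold. The TIF1 co-repressors were all above 0, with 0.92 for TRIM24, 0.41 for TRIM33 and 0.33 for TRIM28, which silences endogenous retroviruses. None of the TIF1 genes passed the threshold.

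Of the TRIM proteins with NHL repeats, which bind RNA or cargo, 2 were above 0 and 2 below. TRIM71, known for developmental timing and stem cells, read -0.67 in the crossbred pool and 0.23 in the Zebu pool, a difference of -0.90. TRIM3 stood at -0.60, TRIM32, mutated in a limb-girdle muscular dystrophy, at 0.32, and TRIM2, a ligase for neurofilament light chain, at 0.83. In TRIM32 another probe was at -0.21, and in TRIM2 other probes were at -0.70 and 0.95. The direction of both genes thus differed between probes. The microtubule-binding TRIM genes with a COS box had a median of 1.31 over 6 genes, 5 of them above 0, and none passed the threshold. TRIM36 and TRIM42 are in this list too. TRIM9, a mainly neuronal ligase, was at 1.46 and 1.45 with its probes, and the 18 spots nearest to the second probe had a median of 1.07.

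Outside these groups, RNF44 had the widest difference of the RNF genes. Its brightest probe, printed above, read 1.93 in the crossbred pool and -0.90 in the Zebu pool, a difference of 2.83 or 7.11 times.

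Among the TRIM genes, TRIM29, which lacks a RING domain, read -1.66 in the crossbred pool and -4.81 in the Zebu pool, a difference of 3.15 or 8.89 times. With normexp the log2 difference of this probe was 1.99, and another TRIM29 probe was detected on neither array. TRIM17, first described as a testis RING finger protein, read 1.51 and -0.45, a difference of 1.96. TRIM31 read -2.70 in the crossbred pool and went undetected in the Zebu pool, where its signal was -8.07 and not well above background, so it was at least 9.41-fold higher in the crossbred pool. TRIM77P was likewise undetected in the Zebu pool, and with -3.93 in the crossbred pool it was at least 3.97-fold higher there. Both bounds hold only for the background subtraction used. With normexp the log2 difference of TRIM31 was 1.74, against a bound of 3.23, and that of TRIM77P was also below its bound. The table of current gene symbols lists TRIM77P and TRIM49 as older names of 1 gene, TRIM77. The TRIM49 probe was detected on neither array. No probe past the threshold shared a run of 16 or more bases with a probe of another gene name.

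The antiviral and innate immune members leaned the other way. Of 14 listed, 11 matched, all detected on both arrays, with a median of -0.49 and 8 of 11 below 0. TRIM34, an interferon-responsive relative of the retroviral restriction factor TRIM5, read -3.99 in the crossbred pool and -1.97 in the Zebu pool, a difference of -2.02, and was the 1 TRIM gene counted as lower. TRIM38 stood at -1.05, TRIM26 at -0.88, TRIM25, a ligase for the RNA sensor RIG-I, at -0.76, TRIM21, an antibody receptor in the cytosol, at -0.70, and TRIM5 at -0.26. RNF125, which marks RIG-I for degradation, read 0.71 and -1.74 with its brightest probe, a difference of 2.45 and the opposite direction.

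Interferon-stimulated genes were lower as well. Of the 20 detected, 4 (20%) were lower past the threshold (MX1, OAS1X, OAS1Y and USP18) and none higher, beside 2.92% and 7.12% of the array. OAS1X was detected on the Zebu array only, and its bound of -1.06 does not reach the threshold. The median over the 18 genes on both arrays was -0.83. Their summed level was 11.6 in the crossbred pool and 23.9 in the Zebu pool. DDX58, which codes for RIG-I, was at 1.01. Markers of immune cells did not share 1 direction: the median was -0.56 over 6 T cell markers (summed level 3.22 and 4.85), 0.38 over 4 macrophage markers (17.9 and 9.32) and 0.62 over 3 B cell markers. MS4A1, another B cell marker, was detected in the crossbred pool only and was higher there by at least 4.35 on the log2 scale, and the summed level of all 4 was 1.94 and 1.16. Of the macrophage markers, AIF1 was past the threshold at 1.95. CD163, another macrophage marker, was detected in the Zebu pool only, with a difference of -0.45, and is included in the summed level. The part of immune cells in the values of the immune members was not tested.

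Several of these genes are neighbours in the genome, and the examples given here were chosen after their values were seen. On chromosome 15, TRIM5, TRIM34 and TRIM6 lay within chr15:47282945-47372120 and all 3 were below 0, at -0.26, -2.02 and -0.49. On chromosome 23, TRIM15, TRIM10, TRIM40, TRIM31 and RNF39 lay within chr23:28754837-28860118 and were all above 0, although TRIM40, TRIM31 and RNF39 were detected on the crossbred array only. RNF138 and RNF125 are neighbours on chromosome 24 and both were higher with their brightest probes. The other RNF125 probe, detected on the Zebu array only, went the opposite way, at -1.61. TRIM17 and TRIM11 are neighbours on chromosome 7, where TRIM17 was higher by 1.96 and TRIM11 stood at -0.11.

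Of the 5 muscle members, 2 were detected on both arrays. RNF207, a regulator of a cardiac potassium channel, read -4.11 in the Zebu pool and was undetected in the crossbred pool, so it was at least 3.19-fold lower in the crossbred pool. TRIM54 and TRIM55, partners of the muscle ligase TRIM63, stood at 1.16 and 0.76, and TRIM63 and TRIM72 were not detected. A second TRIM55 probe, nearest the 3′ end, gave -0.45, so the direction of TRIM55 differed between its probes. The 5 smooth muscle markers were all below 0, with a median of -0.77 and a summed level of 29.3 and 51.6. TRIM58, a ligase of maturing red blood cells, was detected on the Zebu array only. It was at least 1.73-fold lower with its brightest probe and at least 2.13-fold lower with the other. With normexp the log2 differences of RNF207 (-0.72) and of the brightest TRIM58 probe (-0.29) were smaller in size than these bounds. Of the red blood cell markers, HBA alone was detected, with a difference of -2.15, and the part of blood in the TRIM58 values was not tested.

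The ligases receive ubiquitin from E1 and E2 enzymes. All 38 ubiquitin, E1 and E2 genes were detected on both arrays, with a median of 0.28. Past the threshold were UBE2R2 at 2.26, UBE2J1 at 1.86 and CDC34 at 1.71, all higher in the crossbred pool, and none was lower. These 3 are 7.89% of the list, near the 7.12% of the array.

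For some genes, the probe chosen decided whether the gene counted as higher or lower. Over the 69 RNF and TRIM genes with at least 2 probes detected on both arrays, the median range between probes was 0.40, and 11 genes (15.9%) had a range over 1. This was close to the array as a whole, where the median range was 0.39 and 17.3% of 8185 gene names had a range over 1.

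RNF44 gave 2.83 with its printed probe and -0.17 with a probe 1576 bases nearer the 3′ end, which read -2.84 in the crossbred pool and -2.67 in the Zebu pool. RNF145 gave 1.46 with its printed probe, which read -3.30 and -4.76. The other RNF145 probes, which lie 1442 and 1652 bases nearer the 3′ end, gave -0.55 and -0.76. In both genes the printed probe was brighter in the crossbred pool, and the probes towards the 3′ end were not.

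RNF41, a ligase for the growth factor receptor ERBB3, gave 1.80 with a probe that crosses an intron and -0.02 with its brightest probe 1276 bases nearer the 3′ end. In TRIM36, 3 probes gave 1.47, 1.63 and 1.49, and the probe nearest the 3′ end gave -0.37. RNF146B, now named RNF146, gave 1.18 with both upstream probes and -0.34 with the probe nearest the 3′ end. In RNF125, the probe 164 bases nearer the 3′ end was undetected in the crossbred pool, at -6.86, and read -5.25 in the Zebu pool, at least 1.45-fold lower in the crossbred pool where the brighter probe was higher by 2.45.

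**Figure D3:**
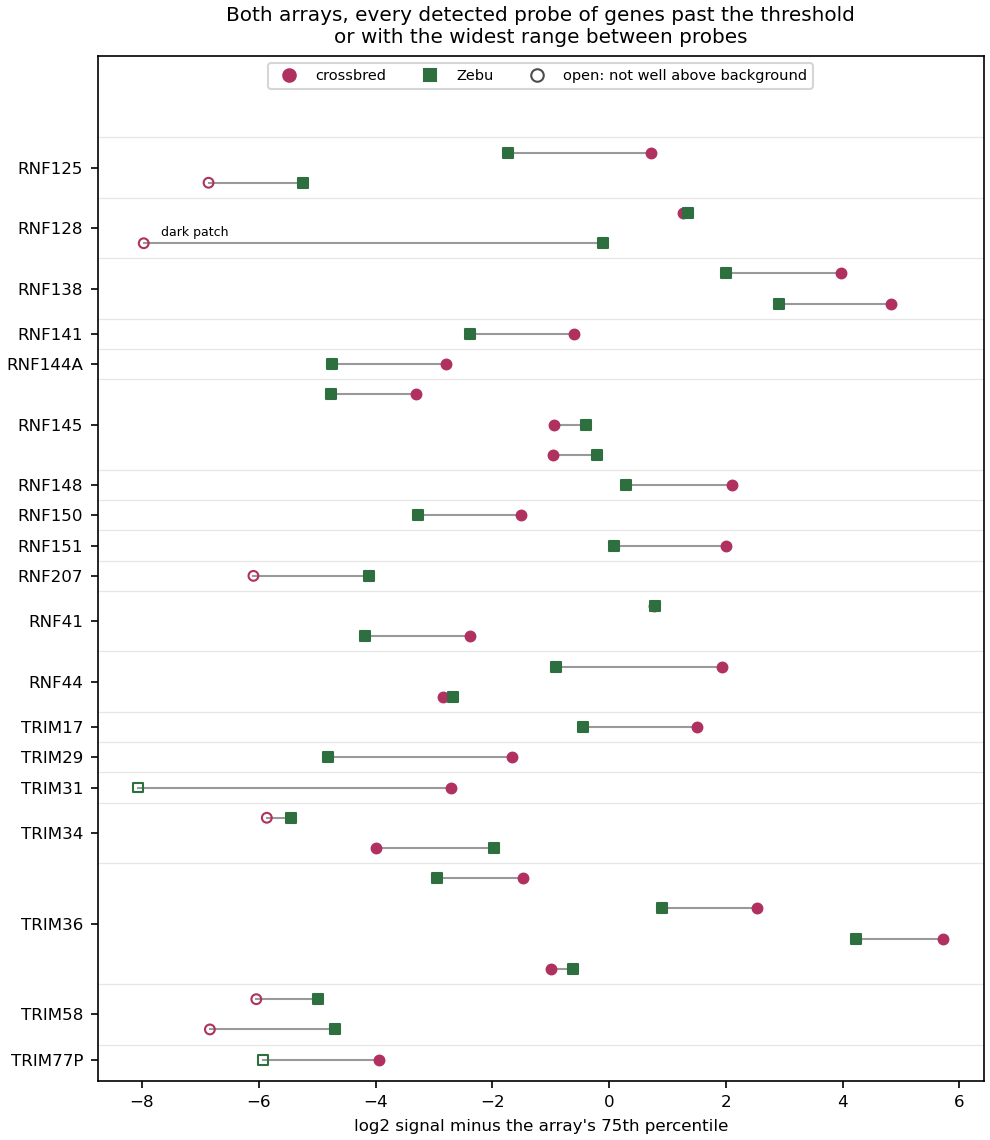
Signal on the crossbred (circles) and Zebu (squares) arrays for every detected probe of RNF and TRIM genes past the threshold or with the widest range between probes, 1 row per probe, x axis as log2 signal minus the array's 75th percentile. Open symbols were not well above background. Probes of RNF138 agree (1.93 and 1.96), whereas those of RNF44 (2.83 and -0.17) and RNF128 (-0.08 and, in the dark patch, a bound) do not.

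Ordered along the gene, the probe nearest the 3′ end was below the mean of the other probes in 43 of 68 RNF and TRIM genes (63.2%), and by 0.5 or more in 14 (20.6%). It was above that mean by 0.5 or more in 5. Over all 7831 gene names that could be ordered, the probe nearest the 3′ end was lower in 58.2% and lower by 0.5 or more in 20%. The shares of the RNF and TRIM genes were thus near those of the array. RNF183, TRIM2, TRIM24 and TRIM32 ran the other way, with a 3′ probe above the mean of the others by 0.90, 0.89, 0.55 and 0.53. RNF19B, at 0.98, did too, but its upstream probe lies in the dark patch of the crossbred array. In TRIM2, the 3′ probe was at 0.95, the probe 117 bases upstream at -0.70 and the probe 3877 bases upstream at 0.83.

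**Figure D4:**
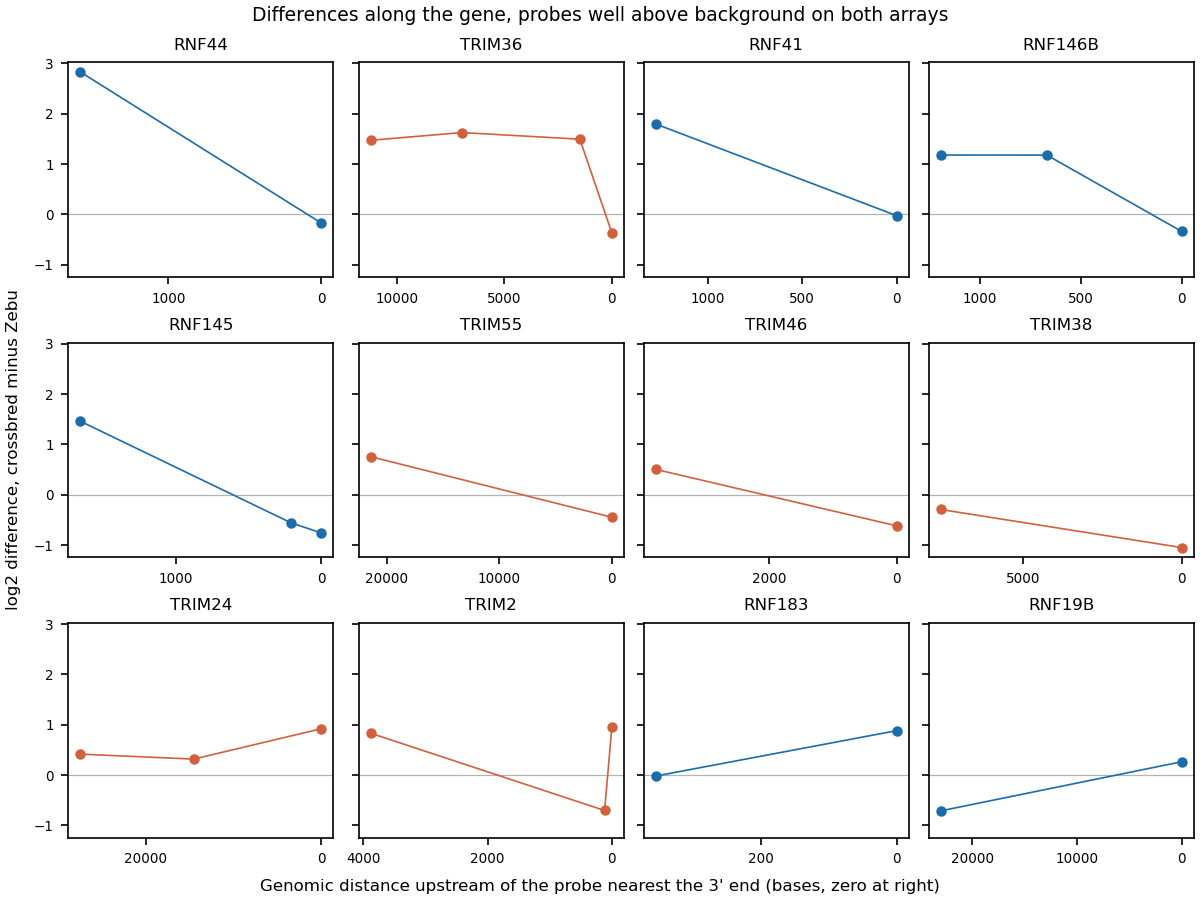
Log2 difference (crossbred minus Zebu, y axis) of each probe well above background on both arrays against its genomic distance upstream of the probe nearest the 3′ end (x axis, bases, zero at right), for the 8 RNF and TRIM genes with the lowest 3′ probe relative to the others and the 4 with the highest. In TRIM36 the 3 upstream probes lie between 1.47 and 1.63 and the 3′ probe at -0.37.

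Part of the crossbred array was dark. Of the 271 spots, 3 lay in the dark patch (rows 54 to 99, columns 35 to 46) and 0 in its small bright patch. RNF128, or GRAIL, a ligase of T cell anergy, had a spot in the dark patch with a signal of 4.69 in the crossbred pool and 1142 in the Zebu pool, a log2 difference of -7.86. All 6 adjacent spots were lower past the threshold too, and the 18 nearest spots had a median of -5.88, taken over the 15 well above background on their brighter array. Its other probe, whose end lies 84 bases downstream on chromosome X and whose spot lies elsewhere on the array, read 1.27 and 1.35, a difference of -0.08.

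RNF215 had 1 spot in the patch and 1 outside it, with differences of -0.70 and 0.05, so that its value was -0.33 with both and 0.04 without the patch. RNF19B, a ligase of natural killer cells, had a probe in the patch at -0.71 and a probe outside it at 0.27, and the 18 spots nearest to the first had a median of 0.09. Outside the patches, the median of the 18 nearest spots lay between -0.65 and 1.07 for all RNF and TRIM spots. TRIM31 had 2 of 6 adjacent spots higher past the threshold and a median of 0.47 over the 18 nearest.

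**Figure D5:**
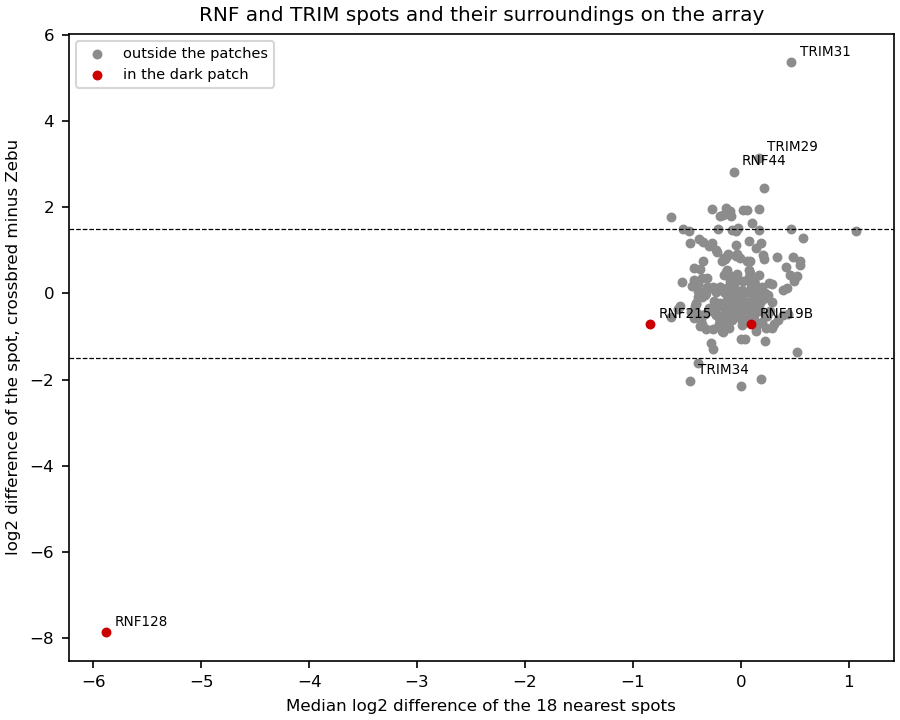
Log2 difference of each detected RNF and TRIM spot (y axis, crossbred minus Zebu) against the median difference of its 18 nearest spots (x axis), in red for the 3 spots of the dark patch. The median covers only those nearest spots whose brighter array was well above background. Dashed lines mark 1.5 in each direction, and the RNF128 spot at -7.86 stands apart with its surroundings at -5.88.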

How the data were processed

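The RNF and TRIM genes were measured in 2 pooled testis RNA samples, crossbred and Zebu, on 1 bovine array of 1 colour (Cy3) each. The authors deposited spot intensities from Agilent Feature Extraction. The one used here is its processed signal, an intensity with the background subtracted and not normalized between arrays, beside mean and local background intensities. They also deposited log2 values shifted to the 75th percentile of each array, which were used as an alternative. Here, control spots and 13 outlier spots were left out, no spot was saturated, log2 signals were averaged per probe and each array was shifted by its 75th percentile, taken over the non-control probes.

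Genes were read from the probe with the highest mean signal. Where 1 array was not well above background, the fold is a bound against the higher of the dim signal and the lowest signal among probes well above background on that array. Such a bound holds for this background subtraction only and can be smaller with another. With 1 array per group, no test was made, lists are described by counts and medians, and the precision is limited by the number of arrays. The SD between spots came from 5960 probes with several spots. On the crossbred array 72.0% of spots were well above background and on the Zebu array 74.3%.

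The members, gene lists, markers and patches were chosen with earlier results of these data known. Named are the genes past the threshold with any probe, the members of the germ cell, RBR, PA-TM-RING, TIF1 and NHL lists, the genes with a spot in a patch and the 5 genes with the widest range between probes. A gene that this rule names is counted but not reported here. Other names illustrate lists, neighbours or the order of probes and were chosen after their values were seen. Of 127 names, 121 are symbols of the RefSeq table of ARS-UCD2.0, 4 are synonyms there and 2 were not matched. Positions are those of the array annotation, with coordinates written from high to low taken as the minus strand. Printed probes were chosen by their codons and not compared with a protein.

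Alternatives were normexp with an offset of 50, other shifts, quantile normalization, the authors' log2 values, other filters, thresholds and rules for probes, and leaving out the patches. The steps were tested on simulated data. Python 3.11.15 (numpy 2.4.6, pandas 2.3.3, scipy 1.17.1, biopython 1.88), together with limma 3.58.1 in R 4.3.3, did the computing.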

Additional observations from a re-analysis of the deposited data

How the results depend on the processing

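No paired analysis was possible because each group has 1 array. The median differences of the RNF and TRIM families moved by less than the SD between spots (0.34) under every alternative run, as did those of the RBR, PA-TM-RING and immune lists. That SD is for a difference of 1 probe and is not the spread of a median. The PA-TM-RING median went from -0.22 to -0.08 without the patches, and the TRIM median from 0.22 to 0.14 with normexp. The median of the germ cell list was 1.06 when a gene's probes were averaged, against 1.47, and moved by less than the SD between spots under the other alternatives. The 9 higher RNF genes became 6 with normexp, 6 when a gene's probes were averaged and 15 at a linear fold of 1.5. The 1 lower RNF gene became 0 with normexp or where detection on both arrays was required, 2 with no filter, with the mean of all probes or at a log2 difference of 1, 7 at a linear fold of 1.5 and 3 with every probe counted. With the mean of all probes and with every probe, the lower count includes RNF128 through its probe in the dark patch. The 4 higher TRIM genes became 2 where detection on both arrays was required, 11 at a difference of 1 and 16 at a linear fold of 1.5. The 1 lower TRIM gene became 0 with normexp, 4 at a log2 difference of 1, 11 at a linear fold of 1.5 and 2 with every probe counted. Over all gene names, 1762 were higher and 722 lower, against 1027 and 166 with normexp and 1634 and 738 with the mean of all probes. Where detection on both arrays was required, 1444 were higher and 397 lower, and with no filter 1924 and 917. The array's counts at a linear fold of 1.5 are not given here. Of all gene names past the threshold, 70.9% were higher, and 86.1% with normexp. With normexp, RNF141 (1.44), RNF144A (1.22), RNF150 (1.42), TRIM77P (0.84), RNF207 (-0.72) and TRIM34 (-1.28) no longer passed the threshold, and TRIM29 (1.99) and TRIM31 (1.74) still did. With the mean of all probes, among others, RNF125 (0.42), RNF44 (1.33) and TRIM34 (-1.22) no longer did. The number of genes whose 3′ probe was the lower, 43 of 68, lay between 43 and 46 under the 5 alternatives, which were chosen after seeing the data, as was counting every probe. No gene's called value changed direction under the alternatives that give 1 value per gene, but with every probe counted RNF125 had a probe counted as higher (2.45) and one counted as lower (-1.61). The cause of these changes was not tested. Probes near the background, such as those of TRIM29, TRIM31, TRIM77P, RNF207 and TRIM58, limit what their folds can show.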
